A study of Mus musculus with 12 samples.

Results

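The genes of cholesterol and fatty acid synthesis that sterol regulatory element-binding proteins (SREBPs) control were followed in mouse bone marrow-derived macrophages. The list held 30 named genes, and all 30 were found by symbol among the 56941 Ensembl gene identifiers of the deposited count tables. They were 18 genes of the route from acetyl units to cholesterol, 8 of fatty acid synthesis and desaturation, and 4 that regulate the pathway or carry sterols. The 12 libraries formed 4 groups of 3. Monocytes were selected from bone marrow of C57BL/6J mice, either wild type (WT) or lacking microRNA-210 (miR-210 KO), and grown for 7 days in serum and L929-conditioned medium, a source of M-CSF. These unpolarized M0 cells were then treated with 20 ng/mL IL-4 for 72 h, which gives M2 macrophages. The M0 controls were kept under the same conditions without IL-4. The KO mice came from a floxed miR-210 allele deleted in the germline with Gata-1 Cre, so that the gene was absent from all cells and not from macrophages alone. The comparisons asked how M2 polarization changed these genes in each genotype, and whether deletion of miR-210 changed them in either state. The sources used do not say whether the cultures of a group came from separate animals, so p-values measure the spread between these libraries. The labels give each group its own batch, and batch and group cannot be told apart.

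SREBPs are made as membrane proteins of the endoplasmic reticulum. When sterols fall, the carrier protein SCAP brings them to the Golgi apparatus, where proteases free the part that enters the nucleus and switches on sterol and fatty acid genes; when sterols are plentiful, INSIG proteins hold the SCAP-SREBP complex back. SREBP2 acts mainly on cholesterol genes and SREBP1 mainly on fatty acid genes. In macrophages the pathway stands opposite the liver X receptors (LXR), which sense oxysterols, the oxidized products of cholesterol, and raise genes of cholesterol efflux as well as Srebf1 itself.

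Library totals ran from 7930525 to 10167695 counts. Mir210 (the deleted gene) was counted 1, 3 and 5 times in WT M0, 1, 2 and 1 times in WT M2, and 0 times in any of the 6 KO libraries. The IL-4 targets Arg1, Retnla, Mrc1 and Chil3 rose in both genotypes, 4 of 4 in each. All 6 macrophage markers were present in every library, with a summed level of 30088 to 36343 normalized counts. The sum hides changes with state. By the test described below, 1 of the 6 was higher and 2 were lower in M2 in WT (22.1% and 20.9% of all genes). In KO 0 were higher and 3 lower (17.4% and 16.4%). Log2 fold changes of M2 over M0 in WT and KO were -2.97 and -2.59 for Fcgr1, and -1.33 and -0.90 for Mertk. Summed neutrophil markers reached at most 41.9, fibroblast markers 20.7, adipocyte markers 9.98 and lymphocyte markers 2.24 normalized counts, and erythroid markers reached 33.4 in WT and were at 0 in every KO library. Dendritic cell markers summed to 2.80 to 8.61 in M0 and 91.8 to 164 in M2. Zbtb46 made up most of that rise, with 2 to 6 counts in M0 and 88 to 143 in M2 libraries, while Flt3 and Cd209a had at most 2 counts and Xcr1 at most 6 in any library; their part in the results was not tested. In bulk samples, fewer cells that express a gene and less RNA per cell cannot be told apart.

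Most of the pathway was higher in M2 than in M0 libraries in both genotypes, a difference that cannot be told apart from batch. In WT cells 23 of the 28 members with enough counts to test were higher in M2 and 2 were lower (edgeR quasi-likelihood test, adjusted p below 0.05 with a change of over 1.2-fold); 22.1% of all genes tested were called higher and 20.9% lower. In KO cells 20 of 28 were higher and 2 lower, where 17.4% and 16.4% of all genes were called. The median log2 fold change of the members was 0.97 in WT and 0.92 in KO, and the medians over all genes tested were -0.00 and -0.01. In WT, all M2 libraries lay above all M0 libraries for 25 of 28 members (28.3% of all genes) and below them for 2 (28.7%). In KO these numbers were 20 (23.6%) and 3 (22.7%). Changes over 1 on the log2 scale were called upward in 13 members in WT and 14 in KO, against 8.49% and 7.38% of all genes. Both lower members, Tm7sf2 and Acss2, were the same in the 2 genotypes. Scd1 and Fads2 had too few counts in M0 to be tested; with both at the lower bound given below, the medians over 30 were 1.00 and 1.04.

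**Figure D1:**
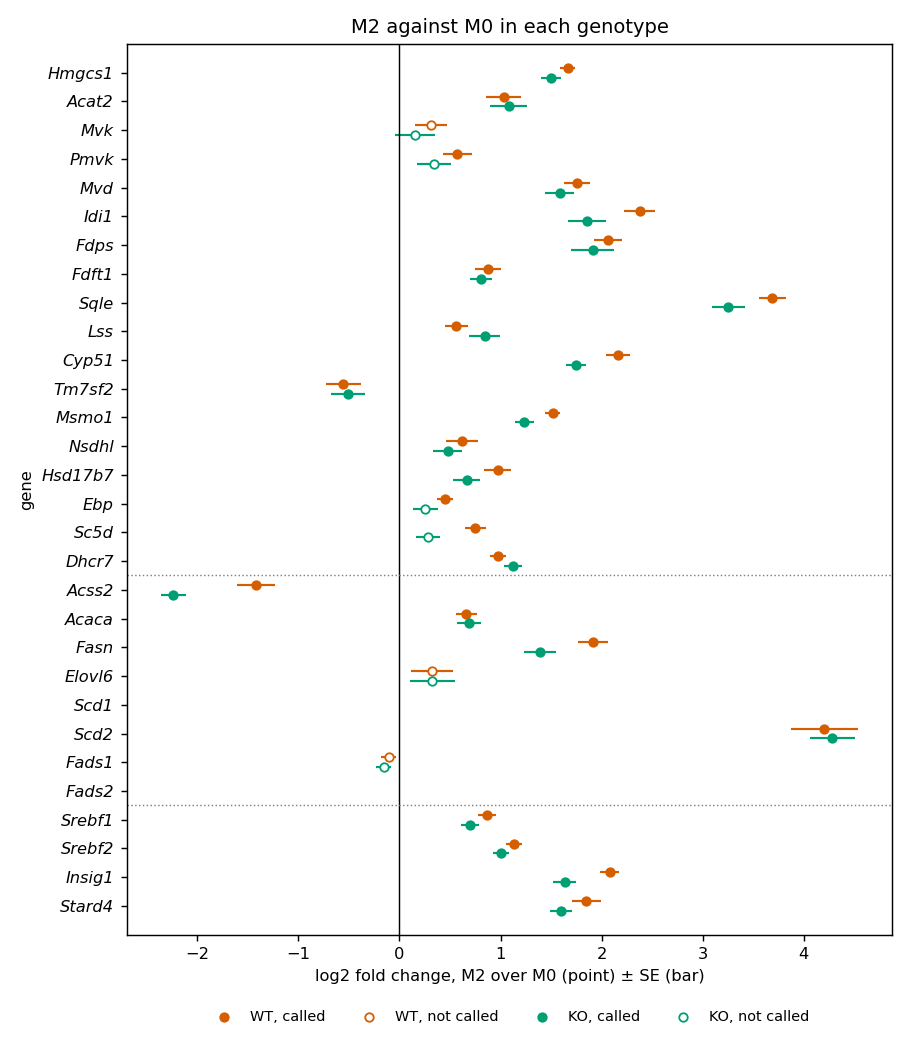
Log2 fold change of M2 over M0 (horizontal axis; points, with bars of 1 standard error) for each gene in WT (orange) and KO (green). Filled points were called and open points were not, dotted lines separate sterol synthesis, fatty acid and regulator genes, and no point is drawn for Scd1 and Fads2; most points lie right of 0, Scd2 and Sqle farthest, while Acss2 and Tm7sf2 lie left of it.

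Promoter letters were counted for the members, which were chosen as SREBP-controlled genes, so the counts are not independent of that choice. The RefSeq promoter table (build GRCm38.p6, 250 bases before to 50 after each start) held 23 of the 30 members; Fdps, Fdft1, Sqle, Stard4, Scd1, Scd2 and Fads1 had no entry. On either strand, the NF-Y box CCAAT was in the window of 19 of the 23, against 41.1% of the 27025 genes in the table, and the GC box GGGCGG was in 19, against 38.2%. The E-box CACGTG was in 4 (Dhcr7, Hsd17b7, Insig1 and Sc5d), against 8.09%, and the sterol regulatory element TCACNCCAC in 1 (Hmgcs1), against 1.44%. Only exact matches to these letters were searched. Sites with other letters or outside the windows were not counted, so a gene without a match can still hold a sterol element. Among the 92 matches in member windows, 0 pairs of different motifs overlapped. These shares are descriptions of the windows, and no site was tested for binding. The 250 bases before the start are shown for 4 genes that rose and for Acss2, which fell, with sterol element, E-box and NF-Y letters in capitals (an NF-Y box on the other strand reads ATTGG). They are HMG-CoA synthase of the mevalonate route (Hmgcs1, chr13:119690101-119690350, plus strand), the isomerase Idi1 (chr13:8885356-8885605, plus strand), the sterol sensor Insig1 (chr5:28071162-28071411, plus strand), fatty acid synthase (Fasn, chr11:120824548-120824797, minus strand) and Acss2 (chr2:155517793-155518042, plus strand).
Hmgcs1: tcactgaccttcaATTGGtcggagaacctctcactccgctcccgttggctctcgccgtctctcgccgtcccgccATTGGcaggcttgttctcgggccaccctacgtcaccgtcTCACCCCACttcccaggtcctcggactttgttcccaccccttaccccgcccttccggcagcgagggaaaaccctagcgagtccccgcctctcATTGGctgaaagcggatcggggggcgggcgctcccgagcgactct
Idi1: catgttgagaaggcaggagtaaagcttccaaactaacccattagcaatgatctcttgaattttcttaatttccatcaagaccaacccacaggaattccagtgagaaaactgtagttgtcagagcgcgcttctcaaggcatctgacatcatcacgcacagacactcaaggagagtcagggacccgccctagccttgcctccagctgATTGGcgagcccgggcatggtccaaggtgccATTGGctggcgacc
Insig1: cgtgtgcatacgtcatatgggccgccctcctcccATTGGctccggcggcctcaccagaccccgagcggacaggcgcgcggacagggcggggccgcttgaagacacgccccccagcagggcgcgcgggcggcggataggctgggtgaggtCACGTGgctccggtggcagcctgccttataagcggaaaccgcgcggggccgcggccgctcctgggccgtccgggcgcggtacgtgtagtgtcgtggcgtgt
Fasn: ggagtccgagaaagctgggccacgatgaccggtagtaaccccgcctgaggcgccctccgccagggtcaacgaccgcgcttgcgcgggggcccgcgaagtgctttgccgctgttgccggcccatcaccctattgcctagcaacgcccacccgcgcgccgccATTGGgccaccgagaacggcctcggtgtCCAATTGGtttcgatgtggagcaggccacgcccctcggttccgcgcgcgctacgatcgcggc
Acss2: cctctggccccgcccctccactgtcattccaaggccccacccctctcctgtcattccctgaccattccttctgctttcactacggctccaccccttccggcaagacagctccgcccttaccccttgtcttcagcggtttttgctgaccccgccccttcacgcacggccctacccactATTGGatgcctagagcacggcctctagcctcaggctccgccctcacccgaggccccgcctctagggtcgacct
Hmgcs1 held 3 NF-Y boxes and the sterol element within these bases, and Insig1 held 1 NF-Y box and the E-box. Fasn held 3 NF-Y boxes, the nearest pair overlapping on opposite strands. Acss2, which moved the other way, also held an NF-Y box. Acaca, Acat2, Elovl6 and Fads2 had no CCAAT in the window.

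**Figure D2:**
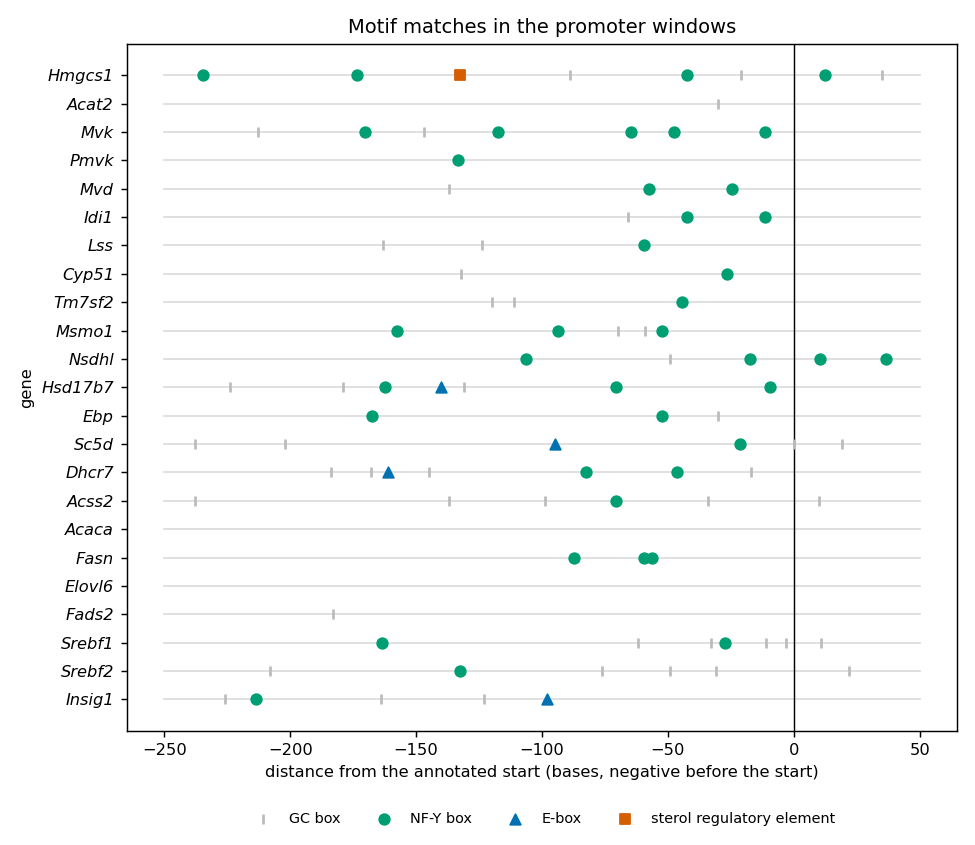
Exact matches to the 4 motifs in the RefSeq promoter windows of 23 genes, by distance from the annotated start in bases (horizontal axis, negative before the start). Genes with several windows have them laid over each other. NF-Y boxes (circles) appear in 19 genes, E-boxes (triangles) in 4 and the sterol regulatory element (square) in Hmgcs1.

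Among the enzymes from acetyl units to squalene epoxide, Sqle rose most in both genotypes, followed by Idi1 and Fdps, which were within their SEs of each other in KO. Sqle (squalene epoxidase, the first oxygen-dependent step; chromosome 15, 59186869 to 59203043 of GRCm39) had 32.2, 36.4 and 40.4 normalized counts in WT M0, 404, 502 and 510 in WT M2, 53.4, 42.2 and 36.0 in KO M0, and 494, 393 and 365 in KO M2. Every M2 library lay far above every M0 library, and the genotypes overlapped in both states. Its level rose 12.9-fold in WT (log2 3.69, SE 0.14, adjusted p = 1.5e-10, edgeR) and 9.54-fold in KO (3.25, SE 0.16, adjusted p = 9.8e-09, edgeR). Idi1, which isomerizes the 5-carbon isoprenoid unit, had 34.5, 28.0 and 29.4 normalized counts in WT M0, then 144, 168 and 161 in WT M2. In KO it had 45.3, 34.4 and 37.0 in M0, and 159, 151 and 111 in M2. The states did not overlap in either genotype, and the log2 fold change was 2.38 (SE 0.15, adjusted p = 2.6e-08, edgeR) in WT and 1.86 (SE 0.19, adjusted p = 6.1e-06, edgeR) in KO.

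Hmgcs1 (HMG-CoA synthase, whose promoter carries the sterol element shown above) had 486, 418 and 491 normalized counts in WT M0, 1379, 1517 and 1503 in WT M2, 562, 483 and 504 in KO M0, and 1599, 1491 and 1277 in KO M2. M2 libraries were above M0 libraries without overlap, and the log2 fold change was 1.66 (SE 0.08, adjusted p = 1.2e-09, edgeR) in WT and 1.50 (SE 0.10, adjusted p = 1.1e-07, edgeR) in KO. Fdps (farnesyl diphosphate synthase) had 54.1, 61.7 and 65.2 normalized counts in WT M0, 212, 275 and 269 in WT M2, 74.6, 68.9 and 47.8 in KO M0, and 285, 264 and 167 in KO M2. KO M2 library 3 was the lowest of the 6 M2 libraries and still above every M0 library, and the log2 fold change was 2.06 (SE 0.14) in WT and 1.91 (SE 0.21) in KO. Mvd, which makes isopentenyl diphosphate, rose by 1.76 (SE 0.13) and 1.58 (SE 0.14) on the log2 scale. Fdft1, squalene synthase, rose by 0.88 (SE 0.13) and 0.81 (SE 0.10).

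Not every step moved alike. The mevalonate kinase gene Mvk had 49.5 to 60.6 normalized counts in WT M0 and 69.3 to 71.5 in WT M2. These did not overlap, as for 28.3% of all genes tested upward. Its log2 fold change of 0.31 (95% interval -0.02 to 0.65, adjusted p = 0.12, edgeR) was not called. In KO the Mvk ranges overlapped, with a log2 fold change of 0.16 (-0.27 to 0.59, adjusted p = 0.59, edgeR). Pmvk, the next kinase, was called in WT at 0.57 (SE 0.14, adjusted p = 0.0047, edgeR) and had 0.34 (SE 0.16, adjusted p = 0.13, edgeR) in KO, or 0.47 (adjusted p = 0.044, edgeR) without KO M0 library 1. Acat2 (cytosolic acetoacetyl-CoA thiolase, the entry step) had 34.6 to 42.2 normalized counts in WT M0 and 67.2 to 84.0 in WT M2. Its log2 fold change was 1.03 (SE 0.17) in WT and 1.08 (SE 0.19) in KO. Acat2 shares 24.0% of its 50-base stretches with Acat3, which had 20 to 34 counts in M0 and 17 to 37 in M2 libraries, so reads could be split between the 2 genes.

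After squalene epoxidation, Cyp51 and Msmo1 had the largest rises in both genotypes. Cyp51, lanosterol demethylase, had 181, 164 and 128 normalized counts in WT M0, 609, 724 and 762 in WT M2, 186, 170 and 178 in KO M0, and 635, 623 and 534 in KO M2. The states were separate in both genotypes, and the log2 fold change was 2.16 (SE 0.12, adjusted p = 6.7e-09, edgeR) in WT and 1.75 (SE 0.10, adjusted p = 3.2e-08, edgeR) in KO. Msmo1 (methylsterol oxidase) had 455, 393 and 431 normalized counts in WT M0, 1158, 1234 and 1247 in WT M2, 535, 461 and 484 in KO M0, and 1183, 1264 and 1030 in KO M2. Here too no M2 library fell into the M0 range, with log2 fold changes of 1.52 (SE 0.07) and 1.23 (SE 0.10). Dhcr7, which completes the Kandutsch-Russell branch, rose by 0.97 (SE 0.08) and 1.12 (SE 0.09), and Hsd17b7, a 3-ketosteroid reductase, by 0.97 (SE 0.13) and 0.67 (SE 0.13). Lss, which closes the sterol rings, rose by 0.56 (SE 0.12) and 0.84 (SE 0.15).

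Nsdhl, Ebp and Sc5d changed less than Cyp51 and Msmo1 in both genotypes. Nsdhl, a sterol dehydrogenase, rose by 0.62 (SE 0.16, adjusted p = 0.0055, edgeR) in WT and 0.48 (SE 0.15, adjusted p = 0.024, edgeR) in KO. The KO call of Nsdhl was lost without KO M0 library 1 or 3 (adjusted p = 0.055 and 0.078, edgeR) and without KO M2 library 1 or 2 (0.11 and 0.088), and the DESeq2 Wald test gave an adjusted p of 0.086. Ebp, the sterol isomerase, was called in WT at 0.45 (SE 0.08, adjusted p = 0.00031, edgeR). In KO its log2 fold change was 0.26 (SE 0.12, adjusted p = 0.12, edgeR). Sc5d, the sterol desaturase, was called in WT at 0.75 (SE 0.10, adjusted p = 4.8e-05, edgeR) and had 0.29 (SE 0.12, adjusted p = 0.087, edgeR) in KO. Without KO M2 library 3 both were called in KO, at 0.37 for Ebp (adjusted p = 0.021, edgeR) and 0.38 for Sc5d (adjusted p = 0.026, edgeR). A call in one genotype and none in the other is not a difference between them; that difference is tested below.

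Tm7sf2 (sterol C14 reductase, an activity that the lamin B receptor also has) was the one sterol enzyme that fell. It had 99.0, 74.8 and 102 normalized counts in WT M0, 65.1, 68.6 and 51.5 in WT M2, 117, 86.1 and 96.4 in KO M0, and 69.8, 64.4 and 75.9 in KO M2. All M2 libraries were below the M0 libraries of their genotype, by a narrow margin. Of all genes tested, 28.7% showed this pattern downward in WT and 22.7% in KO. The log2 fold change was -0.56 (SE 0.17, adjusted p = 0.017, edgeR) in WT and -0.51 (SE 0.17, adjusted p = 0.032, edgeR) in KO. With the DESeq2 Wald test the adjusted p was 0.056 in WT and 0.094 in KO. Leaving out WT M0 library 3 or WT M2 library 3 also ended the WT call (adjusted p = 0.072 and 0.073, edgeR), and leaving out KO M0 library 1 or KO M2 library 1 or 2 ended the KO call (0.10, 0.091 and 0.11). On the same strand, 10.8% of the exon bases of Tm7sf2 lie within exons of Vps51.

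The 4 regulators and carriers all rose in both genotypes. Insig1, the endoplasmic reticulum protein that retains SCAP, had 377, 345 and 398 normalized counts in WT M0, 1353, 1677 and 1681 in WT M2, 484, 393 and 452 in KO M0, and 1509, 1458 and 1153 in KO M2. The states did not overlap, and the log2 fold change was 2.08 (SE 0.09, adjusted p = 9.0e-10, edgeR) in WT and 1.64 (SE 0.11, adjusted p = 1.8e-07, edgeR) in KO. Stard4, a cytosolic sterol carrier, had 127, 170 and 99.2 normalized counts in WT M0, 446, 500 and 475 in WT M2, 160, 183 and 142 in KO M0, and 518, 504 and 453 in KO M2. The carrier was thus higher in every M2 library, with log2 fold changes of 1.85 (SE 0.14) and 1.60 (SE 0.11). Srebf2 had 380 to 413 normalized counts in WT M0 and 797 to 931 in WT M2, and rose by 1.13 (SE 0.08) in WT and 1.01 (SE 0.08) in KO. Srebf1 had 372 to 471 and 712 to 805, and rose by 0.86 (SE 0.09) and 0.70 (SE 0.09). These are transcript levels, and SREBP cleavage was not measured in these files.

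**Figure D3:**
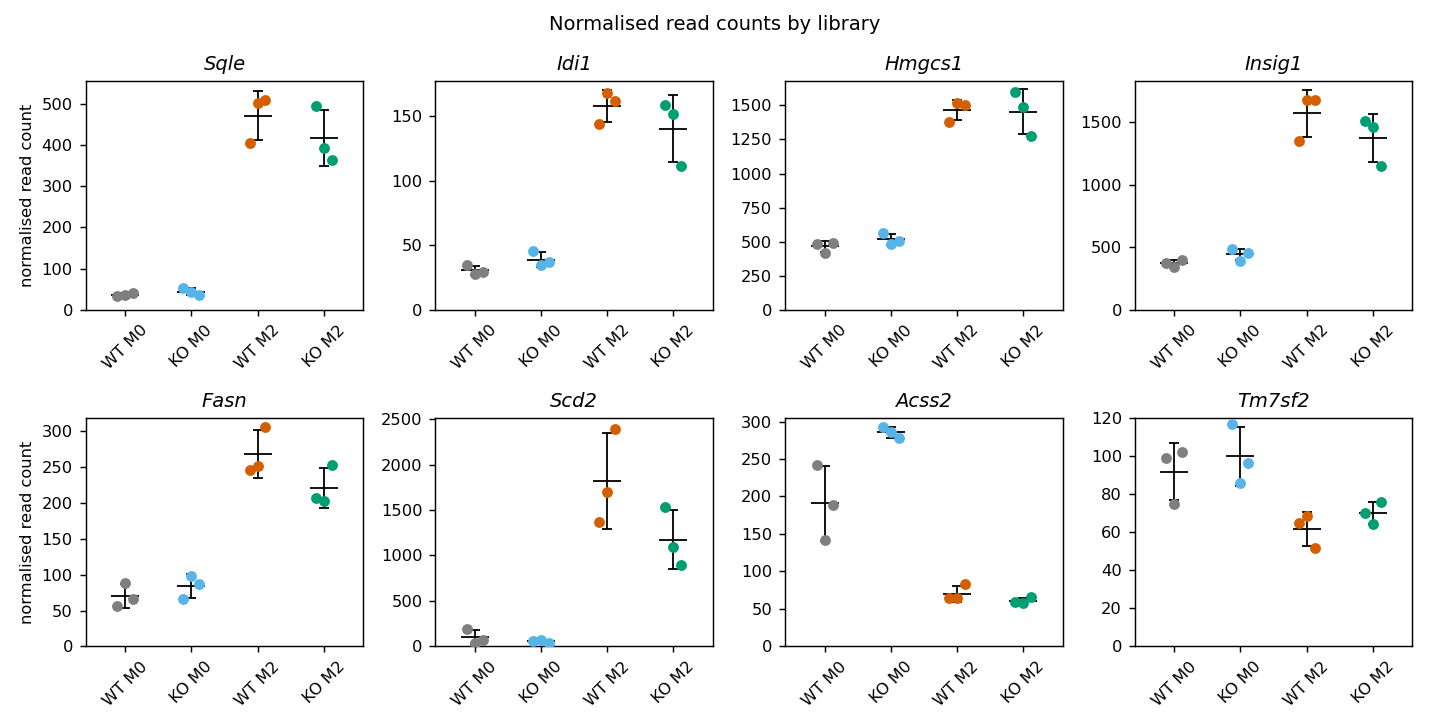
Normalized read counts (vertical axes, each starting at 0) of 8 genes by group, with a coloured point per library and a black bar for the mean ± SD (n = 3). Sqle, Idi1, Hmgcs1, Insig1, Fasn and Scd2 are higher in all 6 M2 libraries than in any M0 library; Acss2 is lower, and for Tm7sf2 one WT M0 library (74.8) lies just below the highest KO M2 library (75.9).

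The fatty acid genes split. Scd2 (stearoyl-CoA desaturase 2, which makes monounsaturated fatty acids; chromosome 19, 44281613 to 44295303 of GRCm39) had the largest change of all tested members. It had 191, 42.1 and 76.2 normalized counts in WT M0, 1365, 1694 and 2396 in WT M2, 64.5, 74.9 and 41.5 in KO M0, and 1534, 1092 and 897 in KO M2. The states were far apart, while WT M0 library 1 exceeded every other M0 library. The log2 fold change was 4.20 (SE 0.33, adjusted p = 1.9e-07, edgeR) in WT and 4.28 (SE 0.22, adjusted p = 1.4e-08, edgeR) in KO, and 4.94 in WT without that library (adjusted p = 4.0e-09, edgeR). The same library was also highest for the LXR targets Abcg1 (1890, against 435 and 895 in the other WT M0 libraries) and Mylip (1473, against 879 and 1232); their part in the Scd2 result was not tested. Scd1, the related desaturase, had at most 2 counts in any M0 library, 8, 22 and 24 counts in WT M2, and 16, 7 and 2 in KO M2. With 3 counts per M0 library as the floor, it was at least 6.26-fold higher in WT M2 and at least 3.20-fold higher in KO M2. Fads2 (the delta-6 desaturase) had at most 1 count in any M0 library, 8, 24 and 12 counts in WT M2 and 11, 6 and 3 in KO M2, so it was at least 4.98-fold and 2.56-fold higher. The KO bounds leaned on KO M2 library 1, and without it they were 1.61-fold for Scd1 and 1.64-fold for Fads2; the KO M2 library with 2 Scd1 counts was no higher than the M0 maximum. The DESeq2 Wald test, which kept these low genes, called both in WT (adjusted p = 0.00022 for Scd1 and 0.00086 for Fads2) and in KO (0.020 and 0.015).

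Fasn, which builds palmitate from malonyl-CoA, had 56.4, 88.8 and 66.1 normalized counts in WT M0, 245, 252 and 306 in WT M2, 65.5, 98.2 and 87.4 in KO M0, and 206, 203 and 253 in KO M2. No M2 library entered the M0 range, and the log2 fold change was 1.91 (SE 0.15, adjusted p = 2.2e-07, edgeR) in WT and 1.39 (SE 0.16, adjusted p = 1.8e-05, edgeR) in KO. Acaca, acetyl-CoA carboxylase 1, which makes the malonyl-CoA, rose by 0.66 (SE 0.10) and 0.69 (SE 0.12). It shares 52.6% of its 50-base stretches with the processed pseudogene Gm5182, which had 18 counts over all 12 libraries against 3387 for Acaca. Elovl6, the elongase of palmitate, was not called in either genotype, with log2 fold changes of 0.32 (95% interval -0.12 to 0.77) in WT and 0.32 (-0.16 to 0.81) in KO. Fads1 (the delta-5 desaturase) had 971, 970 and 984 normalized counts in WT M0, then 849, 870 and 988 in WT M2. These overlapped, and its log2 fold change was -0.11 (-0.26 to 0.05) in WT and -0.15 (-0.31 to 0.01) in KO.

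Acss2, the cytosolic enzyme that makes acetyl-CoA from acetate, fell (chromosome 2, 155355679 to 155428016 of GRCm39). It had 242, 142 and 188 normalized counts in WT M0, 64.0, 64.8 and 82.9 in WT M2, 293, 286 and 278 in KO M0, and 58.8, 57.7 and 65.7 in KO M2. Every M2 library was below every M0 library, and the 3 KO M0 libraries stood above the 3 WT M0 libraries. Its log2 fold change was -1.42 (SE 0.19, adjusted p = 3.2e-05, edgeR) in WT and -2.23 (SE 0.12, adjusted p = 1.7e-08, edgeR) in KO, a level 2.68-fold and 4.71-fold lower. The direction was thus opposite to that of Fasn and Acaca, which use acetyl-CoA.

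**Figure D4:**
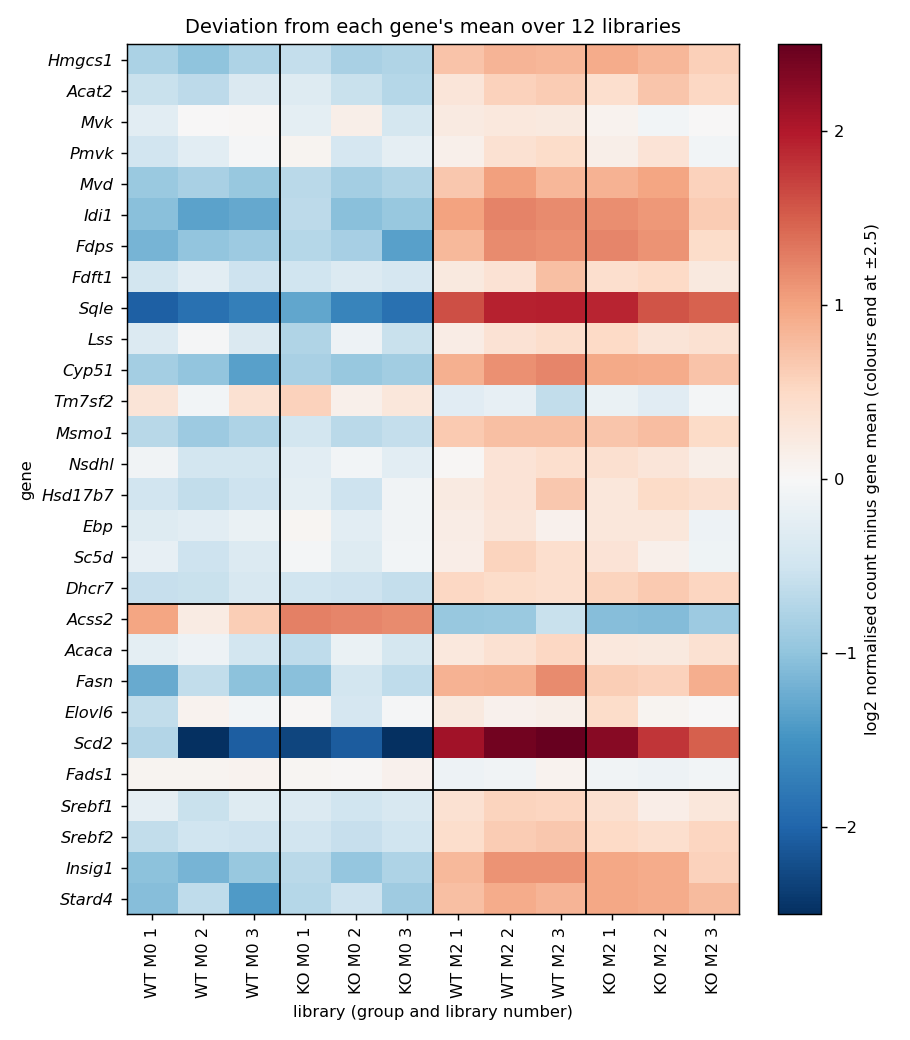
Deviation of each of 28 genes from its own mean over the 12 libraries (colour, log2 normalized counts, blue lower and red higher, ends at ±2.5); columns are libraries by group, and lines separate sterol, fatty acid and regulator genes. Most rows turn from blue in M0 to red in M2, Acss2 and Tm7sf2 turn the other way, and Fads1, Mvk and Elovl6 stay pale.

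Over the 28 tested members, the median deviation of a library from the gene means ran from -0.57 to -0.49 in WT M0, from -0.53 to -0.48 in KO M0, from 0.34 to 0.65 in WT M2 and from 0.43 to 0.49 in KO M2 (log2). The M2 and M0 ranges were thus well apart, and within each state the ranges of the genotypes overlapped. Levels per kilobase of merged exons put the members in a different order in each state. In WT M0, Fads1 stood first with 174 ± 1.33 normalized counts per kilobase (mean ± SD, n = 3), followed by Ebp with 105 ± 6.03, Hmgcs1 with 88.3 ± 7.77, Insig1 with 76.5 ± 5.46 and Srebf1 with 72.4 ± 8.51. Fads1 and Ebp were set apart beyond their SDs, while Insig1 and Srebf1 were within 1 SD of each other. In WT M2, Insig1 stood first with 322 ± 38.5, followed by Hmgcs1 with 278 ± 14.4, Scd2 with 242 ± 69.9 and Fads1 with 161 ± 13.4, and the SDs of the first 3 overlapped. KO M2 had the same leading 4 in the same order, from 281 ± 39.3 for Insig1 and 276 ± 31.1 for Hmgcs1 to 156 ± 43.4 for Scd2 and 155 ± 3.52 for Fads1. Sqle, for all its change, was at 4.09 normalized counts per kilobase in WT M0, within 1 SD of Elovl6 at 4.24. The order depended on the length used: per kilobase of the longest transcript, KO M2 was led by Hmgcs1 (345), Insig1 (309), Msmo1 (289) and Fads1 (228), with Scd2 at 202. On that scale Msmo1 (303) also stood above Fads1 (238) in WT M2, and Sqle (7.91) stood above Fasn (6.53) and Elovl6 (5.87) in WT M0.

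Genes of the pathway outside the list changed less evenly. Of 14 further SREBP pathway genes, 9 rose and 1 fell in WT, and 8 rose and 2 fell in KO, with medians of 0.35 and 0.36 (log2). Over all genes 22.1% rose and 20.9% fell in WT, and 17.4% and 16.4% in KO. Acsl3 (an acyl-CoA synthetase) rose by 1.02 (SE 0.14) in WT and 0.63 (SE 0.18) in KO, and Aacs, which activates acetoacetate for lipid synthesis, by 0.75 (SE 0.11) and 0.48 (SE 0.12). Insig2, the second INSIG protein, rose by 0.30 (SE 0.08) and 0.83 (SE 0.09). The difference between the genotypes in this rise was 0.53 and not called (adjusted p = 0.12, edgeR interaction test). Mid1ip1, which promotes polymerization of acetyl-CoA carboxylase, fell, with log2 fold changes of -1.06 (SE 0.07) and -1.20 (SE 0.09). Of 10 genes of LXR signalling and cholesterol handling, 3 rose and 1 fell in WT and 5 rose and 1 fell in KO, with medians of 0.12 and 0.18 (log2); the WT counts were near or below the shares over all genes just given. Abcg1, a sterol exporter, rose by 1.88 (SE 0.34) and 3.05 (SE 0.13). Here the difference between the genotypes was 1.18 and not called (adjusted p = 0.39, edgeR interaction test). WT M0 library 1 was high for Abcg1, as given above. Mylip, the ubiquitin ligase that removes lipoprotein receptors, had log2 fold changes of -1.69 (SE 0.16) and -1.36 (SE 0.13). Soat1, which esterifies cholesterol for storage, rose by 0.48 (SE 0.07) and 0.30 (SE 0.07).

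Between KO and WT, no member passed the threshold in either state in the edgeR fit of each pair of groups. Batch and genotype cannot be told apart in these comparisons. In M0, 0 of 28 tested members were called (edgeR), and 3 had an unadjusted p under 0.05 (10% of all genes did). Over all genes tested, edgeR called 0.461%. The DESeq2 Wald test called 1 member, Acss2, and 210 of the 13525 genes to which it gave an adjusted p. The median log2 fold change of KO over WT was 0.13, and 19 of 28 were above 0, against 50.1% of all genes. In M2, 0 of 30 were called by edgeR and 0 by DESeq2, 7 had an unadjusted p under 0.05 (10.7% of all genes did), and 0.98% of all genes were called by edgeR. The median was -0.08, with 7 of 30 above 0, against 50.6% of all genes. More members were thus above 0 in M0 and more below 0 in M2, and none passed the edgeR test in either.

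**Figure D5:**
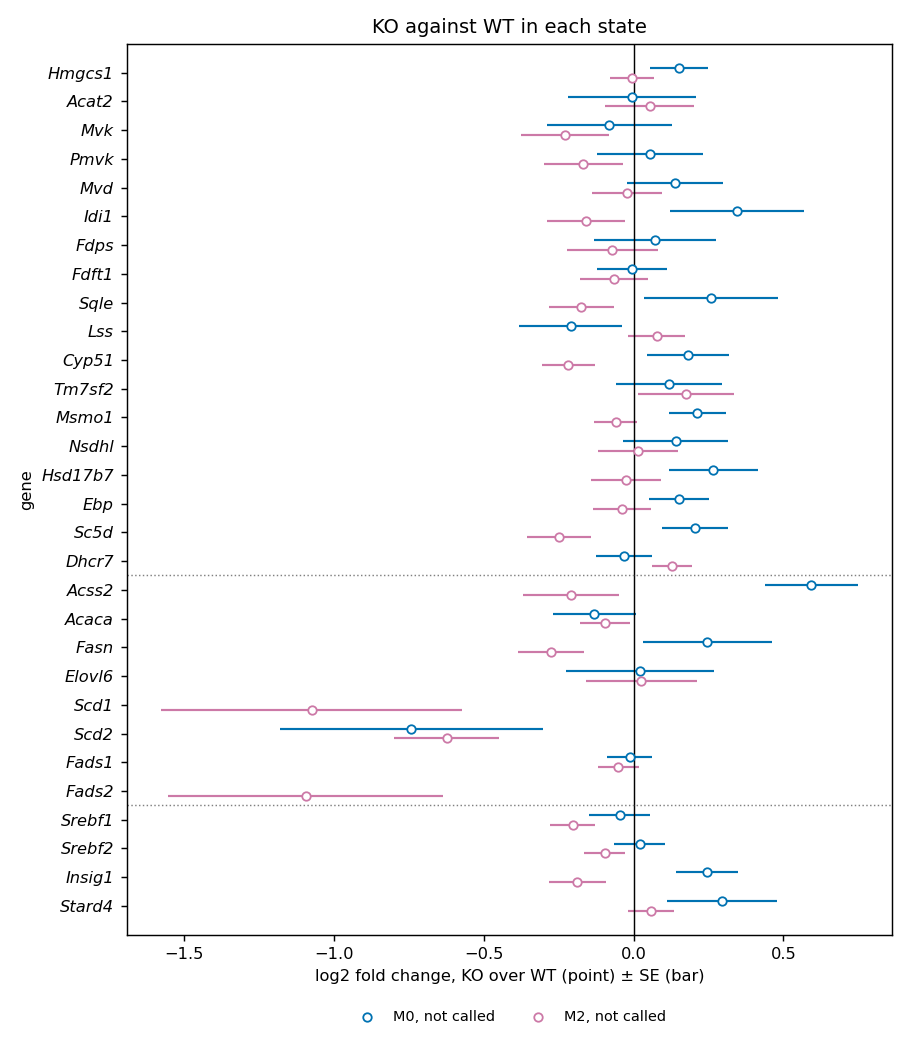
Log2 fold change of KO over WT (horizontal axis; points, with bars of 1 standard error) for each gene in M0 (blue) and M2 (pink); open points were not called, and Scd1 and Fads2 have no M0 point. Points scatter around 0, with Acss2 highest in M0 and Scd1, Fads2 and Scd2 lowest in M2.

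Acss2 came nearest to a call in M0. Its KO M0 libraries, given above, did not overlap the WT M0 libraries (a pattern that 7.13% of all genes tested showed upward), and the log2 fold change of KO over WT was 0.59 (95% interval 0.26 to 0.93, adjusted p = 0.15, edgeR). The adjusted p was 0.046 with DESeq2 and 0.045 with all 12 libraries in 1 edgeR fit, so the call depended on the fit. In M2 the Acss2 libraries overlapped, at -0.21 (-0.55 to 0.13, adjusted p = 0.73, edgeR). For Insig1 the M0 value was 0.25 (0.02 to 0.47, adjusted p = 0.44, edgeR), and for Msmo1, whose M0 genotypes did not overlap, 0.21 (0.00 to 0.42, adjusted p = 0.48, edgeR).

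In M2 the lowest values were those of Fads2, Scd1 and Scd2, while the desaturase Fads1 was at -0.05 (adjusted p = 0.86, edgeR), and none of these was called. Scd2 had 1365, 1694 and 2396 normalized counts in WT and 1534, 1092 and 897 in KO, which overlapped, with a log2 fold change of -0.62 (SE 0.18, adjusted p = 0.13, edgeR). It was called without WT M2 library 1 (-0.79, adjusted p = 0.048, edgeR) or KO M2 library 1 (-0.86, adjusted p = 0.046, edgeR), and was -0.38 (adjusted p = 0.55, edgeR) without WT M2 library 3. In M0, Scd2 had -0.74 (-1.70 to 0.22), which was 0.03 without WT M0 library 1. Scd1 had -1.07 (-2.14 to -0.01, adjusted p = 0.46, edgeR) and Fads2 -1.09 (-2.07 to -0.12, adjusted p = 0.39, edgeR), both from at most 24 counts in a library. The other members whose interval lay below 0 were Fasn at -0.28 (-0.51 to -0.04), Sc5d at -0.25 (-0.48 to -0.02), Cyp51 at -0.22 (-0.41 to -0.03) and Srebf1 at -0.20 (-0.36 to -0.04), with adjusted p of 0.36, 0.41, 0.36 and 0.30 (edgeR). Mvk had 69.3 to 71.5 normalized counts in WT and 56.8 to 63.2 in KO, which did not overlap, as for 8.52% of all genes tested downward, and its log2 fold change was -0.23 (-0.54 to 0.08, adjusted p = 0.64, edgeR). The highest value was that of Tm7sf2, at 0.17 (-0.17 to 0.52, adjusted p = 0.79, edgeR). Dhcr7 had 0.13 (-0.02 to 0.27) with libraries that did not overlap, as 7.52% of all genes tested did upward.

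The difference between the genotypes in the change from M0 to M2 was tested as an interaction over all 12 libraries. No member was called (0 of 30 by edgeR and 0 by DESeq2), 6 had an unadjusted p under 0.05 (8.95% of all genes did), and edgeR called 0% of the 14825 genes tested. The median interaction was -0.16 on the log2 scale, and 23 of 30 members were below 0, against 50.3% of all genes. Those 23 include Scd1 (95% interval -5.45 to 3.47) and Fads2 (-381 to 380). Both had at most 2 counts in any M0 library, so their interaction could not be estimated. Over the 28 members with at least 10 counts in every library the median was -0.17. The smallest p belonged to Acss2, at -0.81 (95% interval -1.32 to -0.29, unadjusted p = 0.0042, adjusted p = 0.28, edgeR), whose M2 over M0 change was -1.42 in WT and -2.23 in KO. Insig1 followed at -0.44 (-0.78 to -0.10, adjusted p = 0.38, edgeR), Sc5d at -0.46 (-0.83 to -0.09, adjusted p = 0.40, edgeR), Cyp51 at -0.41 (-0.76 to -0.05, adjusted p = 0.46, edgeR), Msmo1 at -0.28 (-0.54 to -0.02, adjusted p = 0.52, edgeR) and Fasn at -0.53 (-1.03 to -0.02, adjusted p = 0.53, edgeR). For these 5 genes the estimate was a smaller rise in KO. For Srebf2 the interval was -0.35 to 0.10 and for Acaca -0.32 to 0.38, and differences between the genotypes within those intervals remain compatible with these data. With 3 libraries a group, larger estimates such as the -0.81 of Acss2 were not called either.

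The deleted microRNA pairs with transcripts mainly through bases 2 to 8, the seed. Its mature form and the one match to it among the members are shown, with seed and match in capitals, to give the letters that were searched. Sites outside 3′ untranslated regions and sites with shorter or imperfect seed pairing were not searched.
mmu-miR-210-3p: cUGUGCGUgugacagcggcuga
Lss: cttgttgagatagagACGCACAc
The microRNA sequence is from RefSeq (GRCm38.p6, chr7:141221407-141221428, minus strand), and the Lss site lies in the annotated 3′ untranslated region (GRCm39, chr10:76389928-76389950, plus strand). A match to the 7 seed letters in a 3′ untranslated region of a protein-coding transcript was found for 1 of the 30 members, against 5.2% of the 20973 genes with such a region. Lss had 146, 183 and 144 normalized counts in WT M0, 111, 171 and 126 in KO M0, 210, 237 and 252 in WT M2, and 263, 232 and 241 in KO M2. The genotypes overlapped in both states, with log2 fold changes of KO over WT of -0.21 (-0.59 to 0.17, adjusted p = 0.75, edgeR) in M0 and 0.08 (-0.13 to 0.28, adjusted p = 0.86, edgeR) in M2. The match is a description of letters, and binding was not measured in these files.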

How the data were processed

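RNA was depleted of ribosomal RNA and sequenced as stranded paired-end reads. The authors trimmed reads with Trimmomatic, removed duplicates with Picard, aligned with STAR to GRCm39 and deposited raw read counts per gene from featureCounts; duplicate removal can lower the counts of abundant genes. Counts from the 2 tables that held each library were identical. Library numbers in the tables are not tied to single samples. Annotation symbols matched 56323 of 56941 identifiers. The members, gene lists and tests were chosen with earlier results of these data known, and the named genes were all 30 members, the deleted gene, the polarization markers and at most 6 genes of each further list by smallest adjusted p. Sequence partners (Acat3, Gm5182, Vps51) were named after their values were seen.

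Each pair of groups was fitted with edgeR 4.0.16 (TMM, filterByExpr, quasi-likelihood; limma 3.58.1, R 4.3.3), and p-values were adjusted by Benjamini-Hochberg over all genes tested. Standard errors were derived from the F statistic, and 95% intervals from its degrees of freedom. Normalized counts are counts divided by the TMM-adjusted library size and multiplied by 9066150, the average total. DESeq2 1.42.0, other filters and scalings, a replicate block and leaving out each library were alternatives. Fits were tested on simulated data. Within groups, pairs of libraries differed by 1.89 to 9.85 times sampling noise (chi-square per degree of freedom), so none was a duplicate. Columns of normalized counts and of the authors' comparisons were not used. Counting error only is covered by the floor of 3 counts.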

Additional observations from a re-analysis of the deposited data

How the results depend on the processing

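Among members, no call of a direction reversed under any alternative. The counts of members called were 25 in WT and 22 in KO polarization, 0 in M0 and M2 between genotypes, and 0 for the interaction. With a log2 limit of 1 the WT count was 14. Between genotypes in M0 it was 1 with DESeq2, 1 with all 12 libraries in 1 fit (Acss2 in both) and 2 without a filter on low counts (Acss2 and Scd2); in M2 it was 1 without that filter (Scd2), and for the interaction 2 (Acss2 and Insig1). The median in KO polarization was 1.05 with DESeq2, 1.04 without the filter and 1.04 with all 12 libraries, where Scd1 and Fads2 entered. Leaving out each library gave 24 to 27 members in WT, 20 to 24 in KO, 0 to 0 in M0, 0 to 1 in M2 and 0 to 0 for the interaction, and medians of 0.91 to 1.09, 0.88 to 1.00, 0.053 to 0.16, -0.16 to -0.04 and -0.25 to -0.11. The cause of these shifts was not tested.

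Same-numbered deviations correlated at -0.25 to 0.31 over the 4 comparisons, and differently numbered ones at -0.27 to 0.27. Between genotypes in M0 the same-numbered values were 0.10, 0.31 and 0.02. Deviations from a mean of 3 libraries depend on each other, so these values cannot settle whether library numbers pair the samples. With the replicate block, 25 members were called in WT, 20 in KO (Nsdhl and Tm7sf2 lost, with adjusted p of 0.051 and 0.050, edgeR), 1 in M0 (Acss2), 1 in M2 (Scd2) and 0 for the interaction. Over all genes, calls between genotypes in M0 were 65, and 210 with DESeq2, 532 without the filter, 284 with the block and 248 with all 12 libraries; in M2 they were 137, and 360 without the filter, 289 with the block and 60 with all 12 libraries; for the interaction they were 0, 74 with DESeq2 and 341 without the filter. A log2 limit of 1 left 2042 genes in WT and 1800 in KO polarization, 27 in M0 and 40 in M2. Ordering members by level per kilobase of the longest transcript kept 9 of the leading 10. With 3 libraries a group, Scd1 and Fads2 had too few counts to test in M0.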
